A study of Homo sapiens with 10 samples.

Results

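The genes described here are those whose translation could be measured in control HCT116 cells, a human colorectal carcinoma line, without knockdown of YTHDF1. They are the 6639 named genes with a control mRNA value of at least 1 among the 6926 rows of the series' expression table. ZNF460 was the nearest gene left out and LAT the nearest kept, both with a control mRNA value of 1.00 after rounding. The control cells carried a hairpin against GFP, per the file headers, and gave 1 footprint library and 1 mRNA library. Knockdown cells carried a hairpin against YTHDF1 and gave 2 libraries of each assay, titled shY1-1 and shY1-2 and called knockdown 1 and knockdown 2 here. Per the labels, cycloheximide at 100 ug/ml for 3 min preceded harvest. An immunoprecipitation of YTHDF1-bound RNA (RIP, 1 library and 1 input) and 2 m6A-seq replicates of control cells served as annotation. Whether the libraries come from separate cultures is not stated in the labels.

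Ribosome profiling sequences the stretches of mRNA that ribosomes shield from nuclease, so a gene's footprint value rises with the amount of its mRNA and with the number of ribosomes on each copy. Dividing footprints by mRNA gives the translation efficiency. Known influences on it include the structure of the 5′ leader, upstream open reading frames, and the terminal oligopyrimidine tract, a run of C and T letters at the transcription start through which mTOR signalling controls ribosomal protein mRNAs. N6-methyladenosine (m6A) is a base modification of mRNA, and YTHDF1 is a cytoplasmic protein that binds it and has been described as a promoter of translation.

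Efficiency was taken as log2((footprint + 1)/(mRNA + 1)) in the control. The median over the 6639 genes was 1.05, and every efficiency below is relative to that median, in log2 units, so 0 is the middle gene and 1 is 2-fold above it. The table's values are the authors' relative abundances in an unnamed unit, so only differences between genes are read and the level of the median has no meaning of its own. With 1 library per assay no test was possible. The same ratio in the 2 knockdown pairs, centred on its own median, is given beside the control as the nearest thing to a repeat, although those cells lack most YTHDF1 mRNA (8.62 and 7.81 in knockdown 1 and 2, against 27.4 in the control).

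The quartiles lay at -0.98 and 0.91, and the 5th and 95th percentiles, -2.39 and 2.14, were 23.1-fold apart. The full range ran from -6.20 to 8.76. At least 2-fold above the median lay 1540 genes (23.2%), called high here, and at least 2-fold below it 1619 (24.4%), called low. Of the high genes, 909 (59.0%) were also high in both knockdown pairs, and of the low genes 929 (57.4%) were low in both. Only 8 genes had the opposite call in both. A gene's efficiency differed between knockdown 1 and 2 by a median of 0.42. Between the control and knockdown 1 and 2 it differed by 0.47 and 0.41. Differences of this size between single genes are thus within the spread of these libraries.

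**Figure D1:**
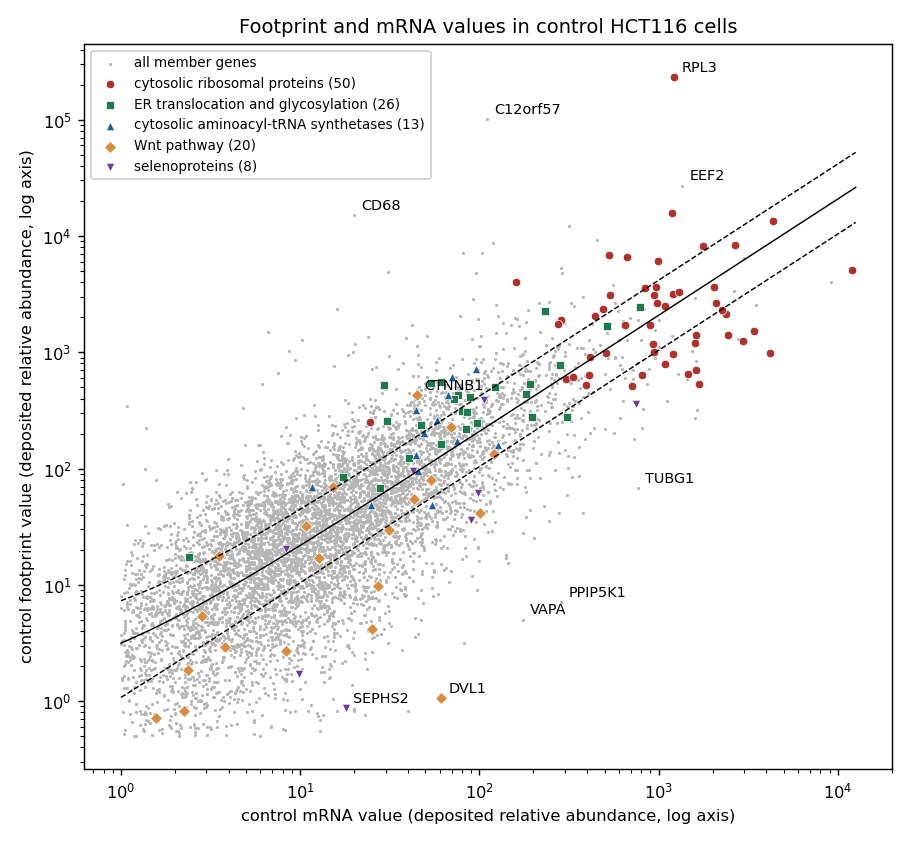
Each point is 1 of 6639 genes in control HCT116 cells, with its footprint value on the y axis and its mRNA value on the x axis (deposited relative abundance, log axes). The solid line marks the median efficiency and the dashed lines lie 2-fold above and below it. Coloured symbols mark 5 families, numbers in brackets are their genes, and RPL3, C12orf57 and CD68 stand far above the line.

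Footprints were concentrated in few genes. The 10 highest held 36.0% of the footprint sum, against 14.1% of the mRNA sum in its own 10 highest. RPL3, a protein of the large ribosomal subunit, held 18.9% and C12orf57 8.18%. Among the others of the 10 were EEF2, CD68, RPL21, TNFRSF12A, LDHA, GLTSCR2 and RPL38. As for cell identity, the table lists 7 of 10 epithelial markers, with mRNA values up to 1589.7 in KRT19. It lists 3 of 8 fibroblast markers, with mRNA values up to 5.01, and 1 of 8 blood markers, CD68 at 19.9.

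The translation machinery itself did not sit together. The 50 listed genes of the cytosolic ribosome, paralogs included, had a median of -0.11. Of them 14 were high and 16 low, shares of 28% and 32% beside 23.2% and 24.4% of all genes. Members of this family that are not listed could not be described, and the sums below cover the listed genes only. Their median was -0.47 and 0.27 in knockdown 1 and 2. They supplied 30.4% of the footprint sum and 21.8% of the mRNA sum, but with RPL3 and C12orf57 left out of both sums the shares were 15.7% and 21.5%. The starts of the 4 highest and the 4 lowest members with a RefSeq promoter row are printed because the oligopyrimidine tract is the best known translational element of this family. Each line gives 30 bases, 5′ to 3′, from 10 before the most upstream annotated start (RefSeq, GRCh38.p14). Capitals mark a run of at least 7 letters, each C or T, that begins with C within 10 bases of the start on the gene's strand.
RPL3 (chr22:39319604-39319633, minus strand): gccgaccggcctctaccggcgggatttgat
RPS25 (chr11:119018324-119018353, minus strand): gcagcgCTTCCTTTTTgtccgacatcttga
RPL37A (chr2:216498834-216498863, plus strand): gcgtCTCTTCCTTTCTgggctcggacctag
RPS27L (chr15:63157458-63157487, minus strand): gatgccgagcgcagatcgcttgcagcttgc
RPS15 (chr19:1438386-1438415, plus strand): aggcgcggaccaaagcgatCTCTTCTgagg
RPL13 (chr16:89560647-89560676, plus strand): tgctatcatcccagagtgcattgcggggcc
RPS27 (chr1:153990752-153990781, plus strand): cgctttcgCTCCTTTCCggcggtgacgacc
RPS3A (chr4:151099618-151099647, plus strand): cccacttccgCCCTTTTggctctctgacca

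The first 4 lines are the highest members and the last 4 the lowest. Such a run was found in 33 of 42 ribosomal protein genes (78.6%), against 13.4% of all 27305 genes of the promoter table. Both ends of the family hold starts with and without it. Ribosomal protein genes with a run had a median of 0.08 (33 genes) and those without one -1.03 (9 genes). The run was sought at the most upstream annotated start alone, so genes counted as without one may hold it at another start. Over all genes with a promoter row the medians with and without a run were 0.09 (802 genes) and 0.04 (4836).

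RPL3 led the family with footprint values of 67212 and 120165 in knockdown 1 and 2 and 232668 in the control, on mRNA values of 963, 1042 and 1223. Its efficiency was 5.23 and 6.16 in knockdown 1 and 2, against 6.52 in the control, above every other member in each pair, and 4 snoRNA genes lie inside it. RPS25, a small subunit protein, followed with 2.81 and 3.43 in knockdown 1 and 2, against 3.59 in the control. RPL37A had 6868 footprints on 527 mRNA in the control, an efficiency of 2.65. At the other end RPS15, which binds near the decoding site of the small subunit, had -2.91 and -3.14 in knockdown 1 and 2, against -3.14 in the control, on control values of 980.1 footprints and 4165 mRNA. RPS27 had the highest mRNA value of all genes, 12079.6, with 5076 footprints and an efficiency of -2.30. RPL5 and RPL23A did not keep their place, since RPL5 had -1.23 and 0.32 in knockdown 1 and 2, against -2.28 in the control and RPL23A -0.76 and 1.44 in knockdown 1 and 2, against -1.25 in the control. The middle member, RPL36AL, stood at -0.12. Reads of ribosomal protein genes can be shared with processed pseudogenes, so single values here are uncertain. RefSeq names 0 to 137 pseudogenes per member (median 12), the efficiency correlated with that number at a Spearman rho of -0.29 over the 50 genes, and its part in the values was not tested.

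**Figure D2:**
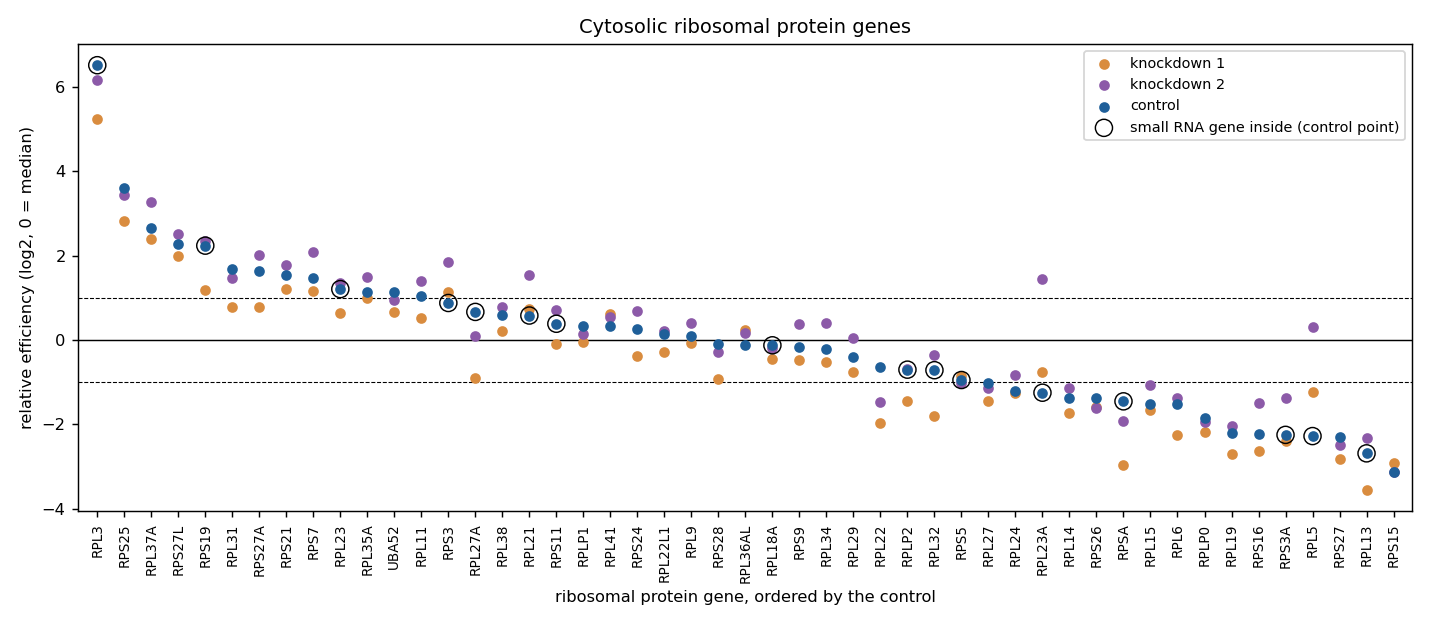
Relative efficiency (log2, y axis) of 49 of the 50 cytosolic ribosomal protein genes, ordered along the x axis by the control, in knockdown 1, knockdown 2 and the control. Rings mark the 16 plotted genes with a small RNA gene inside, dashed lines lie 2-fold from the median, and the members spread from 6.52 for RPL3 to -3.14 for RPS15.

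Initiation factors, which place the ribosome on the start codon, lay higher, with a median of 0.60 over 31 genes. Of them 11 were high and 5 low (35.5% and 16.1%, beside 23.2% and 24.4% of all genes). Their median was 0.63 and 0.35 in knockdown 1 and 2. EIF4G2, which supports cap-independent initiation and holds a snoRNA gene, was the highest with 3.49 and 4.09 in knockdown 1 and 2, against 3.14 in the control. EIF2S1, the alpha subunit of eIF2 that stress kinases phosphorylate, had 2.64 and 2.36 in knockdown 1 and 2, against 2.50 in the control, and EIF1, which guards start codon choice, 1.69 and 2.36 in knockdown 1 and 2, against 2.42 in the control. The helicase paralogs parted, with EIF4A2, a host of small RNA genes, at 2.94 and EIF4A3, a core part of the exon junction complex, at -2.18. Within the eIF3 scaffold, EIF3J stood at 1.78, EIF3M at 1.38, EIF3F at -2.05 and EIF3C at -3.42. EIF3C has a near-identical copy in the genome and its low footprint value (2.21) is uncertain for that reason.

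Elongation and termination factors (9 genes) with poly(A)-binding proteins lay on both sides of the median. EEF2, which moves the ribosome along by 1 codon and holds a snoRNA gene, had footprint values of 7749 and 10767 in knockdown 1 and 2 and 27004 in the control, and efficiencies of 1.32 and 2.29 in knockdown 1 and 2, against 3.26 in the control. ABCE1, which splits terminated ribosomes, had 2.64 and 2.64 in knockdown 1 and 2, against 2.37 in the control. EEFSEC, the factor that delivers selenocysteine tRNA, was the lowest with -1.05 and -1.06 in knockdown 1 and 2, against -2.01 in the control. The family median was 0.47 and 0.97 in knockdown 1 and 2 and -0.31 in the control, so its sign is not settled.

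The cytosolic aminoacyl-tRNA synthetases, which charge tRNAs with amino acids, had the highest control median of the 38 families with at least 5 genes. It was 0.61 and 1.04 in knockdown 1 and 2, against 0.97 in the control. In the control 6 of 13 genes were high and 1 low (46.2% and 7.7%, beside 23.2% and 24.4% of all genes). MARS, which charges the initiator methionine tRNA, had 2.28 and 1.82 in knockdown 1 and 2, against 1.83 in the control. NARS (asparagine) had 1.92 and 1.76 in knockdown 1 and 2, against 1.77 in the control and KARS (lysine) 1.32 and 1.31 in knockdown 1 and 2, against 1.61 in the control. The highest control value, that of WARS (tryptophan), was not shared by the knockdown pairs, at 0.39 and -0.16 in knockdown 1 and 2, against 2.03 in the control. AARS (alanine) was the lowest with -0.68 and -1.24 in knockdown 1 and 2, against -1.21 in the control.

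Genes of protein entry into the endoplasmic reticulum and of glycosylation there formed another high family. Of 26 genes, 11 were high and 1 low (42.3% and 3.8%, beside 23.2% and 24.4% of all genes). The median was 1.02 and 0.86 in knockdown 1 and 2, against 0.83 in the control. Parts of the signal peptidase complex, which cuts signal peptides, ran from SPCS1 at 1.07 and 0.81 in knockdown 1 and 2, against 0.77 in the control, over SPCS2 at 1.58 and 1.49 in knockdown 1 and 2, against 2.10 in the control, to SPCS3 at 3.02 and 3.11 in knockdown 1 and 2, against 3.04 in the control. Signal recognition particle proteins spread from SRP14 at 0.40 over SRP54 at 1.16 to SRP72 at 1.97 and SRP68 at 2.27. In the oligosaccharyltransferase, DDOST stood at 1.43, OST4 at 1.38 and OSTC at 1.13, while the ribophorins were below the median, RPN2 at -0.54 and RPN1 at -1.78 and -1.88 in knockdown 1 and 2, against -1.22 in the control. The chaperone HSP90B1, which holds a small RNA gene, had 0.34 and 0.65 in knockdown 1 and 2, against 2.23 in the control, so its control value was above both. In a separate family, vesicle coat and endosome sorting genes (48 genes, median 0.65), 18 were high and 6 low (37.5% and 12.5%). Among the high ones AP2S1, the small chain of the plasma membrane clathrin adaptor, had 3.03 and 3.77 in knockdown 1 and 2, against 3.29 in the control. CLTC, the clathrin heavy chain, had 2.13 and 2.07 in knockdown 1 and 2, against 2.19 in the control.

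Families of protein folding and turnover differed in how far they lay from the median. Ubiquitin-conjugating enzymes (20 genes) had a median of 0.71 and 0.85 in knockdown 1 and 2, against 0.89 in the control. Of them 10 were high and 3 low (50% and 15%, beside 23.2% and 24.4% of all genes). UBE2E1 had 3.19 and 3.57 in knockdown 1 and 2, against 3.38 in the control, and UBE2K 3.05 and 3.30 in knockdown 1 and 2, against 3.18 in the control. UBE2L3, a partner of HECT and RBR ligases, was the lowest at -2.03 and -1.82 in knockdown 1 and 2, against -1.64 in the control. Substrate-choosing F-box and TRIM genes (40 genes) had a median of 0.06 and -0.33 in knockdown 1 and 2, against 0.13 in the control. Of them 6 were high and 8 low (15% and 20%). Their median was -0.43 among genes with control mRNA of at least 10. Deubiquitinases (37) had a median of 0.28 and 0.15 in knockdown 1 and 2, against 0.23 in the control. Of them 10 were high and 7 low (27.0% and 18.9%), near the shares of all genes. Proteasome subunits (25 genes) had a median of 0.54 and 0.63 in knockdown 1 and 2, against 0.51 in the control, from PSMC6 at 2.05 to PSMD3 at -1.97. Of them 6 were high and 4 low (24% and 16%), so the share of high subunits was near that of all genes (23.2% and 24.4%). Subunits of the CCT ring, which folds actin and tubulin, differed, with CCT2 at 1.63 and 1.85 in knockdown 1 and 2, against 1.73 in the control and CCT3 at -1.59 and -1.62 in knockdown 1 and 2, against -2.0 in the control. CCT3 had the higher mRNA value of the pair, 1609 against 157 for CCT2, and their footprint values were 837 and 1086. HSP90AA1, the inducible cytosolic HSP90, had 2.92 and 3.21 in knockdown 1 and 2, against 3.00 in the control. Of the 10 heat shock genes 4 were high and 0 low (40% and 0%). DNAJ co-chaperones (20 genes) had a median of 0.20 and 0.31 in knockdown 1 and 2, against 0.47 in the control. Of them 4 were high and 5 low (20% and 25%), near the shares of all genes. Their median was -0.006 among genes with control mRNA of at least 10.

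**Figure D3:**
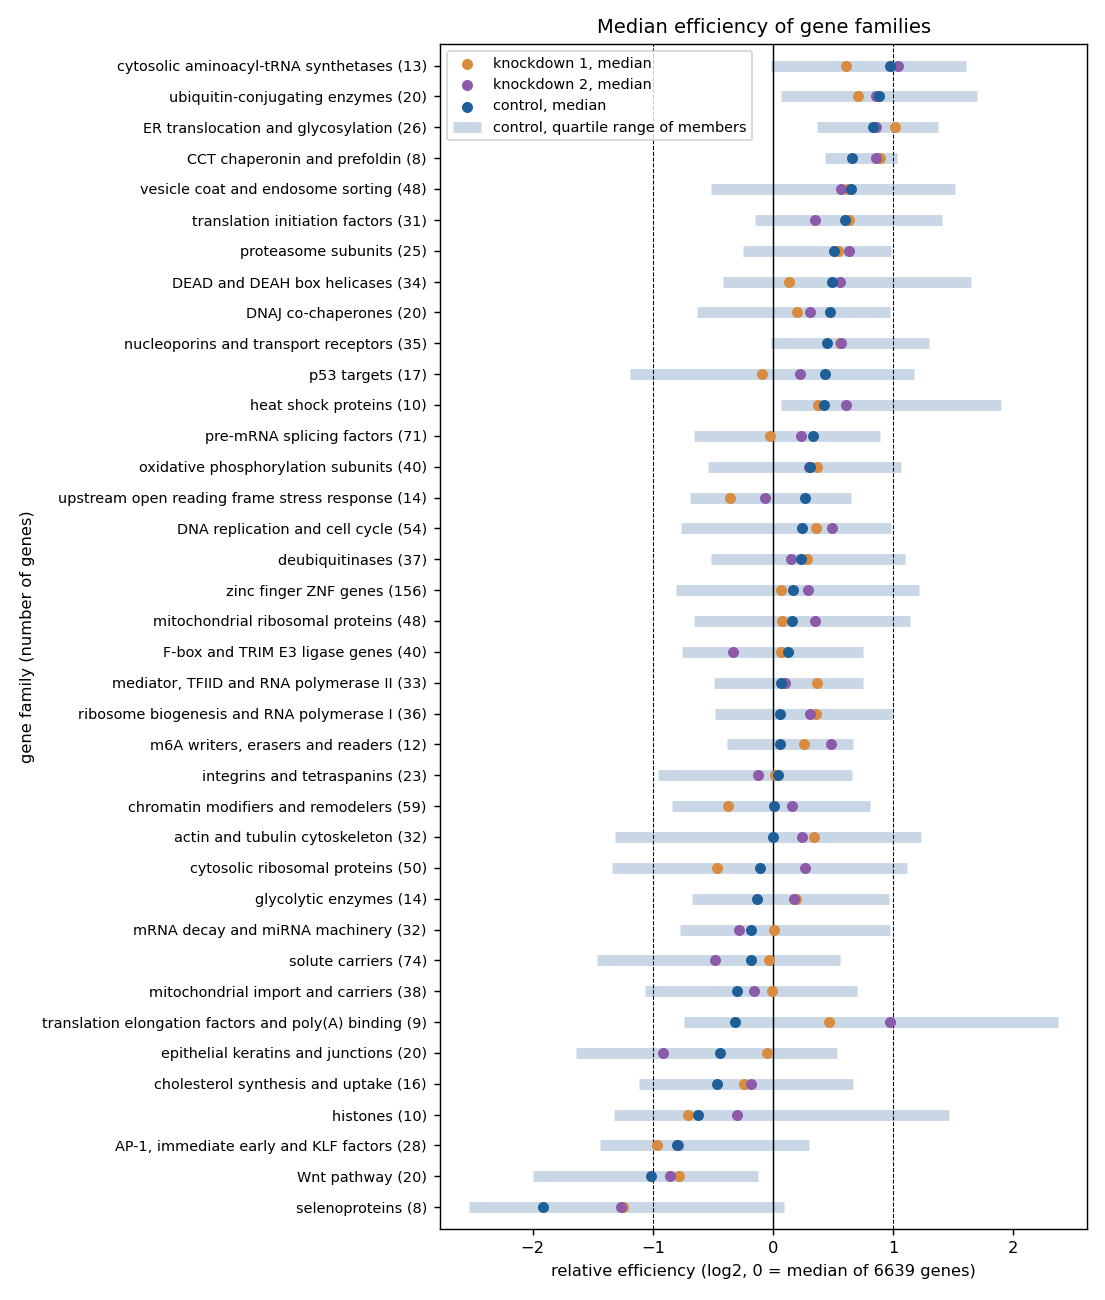
Median relative efficiency (log2, x axis) of 38 gene families (y axis, number of genes in brackets) in knockdown 1, knockdown 2 and the control, with the control's quartile range as a bar. Dashed lines lie 2-fold from the median of all genes, and only the selenoproteins and the Wnt pathway pass one in the control.

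Of the 38 families, 26 had a control median above 0 and 12 below it, and 28 kept one sign in all 3 pairs. Over all alternatives run, which include other pseudocounts and mRNA minimums, 15 of the 36 families other than ribosomal protein and ZNF genes changed sign at least once. The ribosomal protein and ZNF medians changed sign as well, to 0.13 and -0.02 with a pseudocount of 5. The lowest family median was that of the selenoproteins, which carry selenocysteine at a recoded UGA stop codon. Their median was -1.25 and -1.26 in knockdown 1 and 2, against -1.92 in the control. In the control 5 of 8 genes were low and 0 high (62.5% and 0%, beside 24.4% and 23.2% of all genes). SEPHS2, which makes the selenium donor, had footprint values of 1.19 and 0.849 in knockdown 1 and 2 and 0.872 in the control on mRNA values of 20.9, 20.7 and 18.0. Its efficiency was -4.21 and -4.25 in knockdown 1 and 2, against -4.40 in the control, low in every pair. GPX4, which reduces lipid peroxides and guards against ferroptosis, had -2.09 and -1.70 in knockdown 1 and 2, against -2.11 in the control, on abundant control mRNA (747). GPX1, the cytosolic glutathione peroxidase, had -0.42 and -0.83 in knockdown 1 and 2, against -1.72 in the control. The thioredoxin reductases were not low, with TXNRD1 at 1.16 and 0.96 in knockdown 1 and 2, against 0.80 in the control and TXNRD2 at -0.27 and 0.78 in knockdown 1 and 2, against 0.15 in the control.

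Wnt pathway genes, which control beta-catenin and are commonly activated in colorectal tumours, came next. Their median over 20 genes was -0.79 and -0.86 in knockdown 1 and 2, against -1.02 in the control. Of these genes 2 were high and 10 low (10% and 50%, beside 23.2% and 24.4% of all genes). Among genes with control mRNA of at least 10 the median was -0.63. Frizzled receptors and their Dishevelled relays were among the low genes. FZD5 and FZD7 stood at -1.89 and -1.63, the co-receptor LRP5 at -2.23 and -3.84 in knockdown 1 and 2, against -3.40 in the control, and DVL1, a relay from the receptor, at -4.78 and -4.93 in knockdown 1 and 2, against -5.97 in the control. DVL1 had 1.06 footprints on 61.2 mRNA in the control and its relatives DVL2 and DVL3 stood at -2.44 and -1.14, although DVL2 had 0.28 and -0.52 in knockdown 1 and 2. The other co-receptor, LRP6, was at 0.98. At the pathway's core CTNNB1, which encodes beta-catenin, had footprint values of 424 and 370.2 in knockdown 1 and 2 and 429 in the control, on mRNA values of 40.8, 50.2 and 44.7. Its efficiency was 2.45 and 2.17 in knockdown 1 and 2, against 2.18 in the control, the highest of the list. The kinase GSK3B, which marks beta-catenin for destruction, had 1.31 and 0.93 in knockdown 1 and 2, against 1.06 in the control, and TCF7L2, the DNA-binding partner of beta-catenin, -1.07 and -0.02 in knockdown 1 and 2, against 0.65 in the control.

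The family of rapidly induced regulators had a negative median in each pair. In AP-1, immediate early, KLF and DUSP genes the median was -0.96 and -0.79 in knockdown 1 and 2, against -0.80 in the control, with 0 high and 10 low of 28 (35.7% low, beside 24.4% of all genes). ATF3 was the highest in the control and just short of 2-fold there, but it was high in both knockdown pairs, at 1.21 and 1.84. FOSL1, the most abundant AP-1 mRNA here at 816, had -3.03 and -2.67 in knockdown 1 and 2, against -2.38 in the control. JUND had -2.65 and -2.75 in knockdown 1 and 2, against -2.51 in the control, JUN -1.44 and -1.59 in knockdown 1 and 2, against -1.27 in the control and JUNB -1.13 and -1.20 in knockdown 1 and 2, against -0.93 in the control. The phosphatases that switch off ERK were split, with DUSP7 at -3.01 and -3.15 in knockdown 1 and 2, against -3.48 in the control and DUSP6 at 1.28 and 1.01 in knockdown 1 and 2, against 0.99 in the control. Histones (10 genes) ran from HIST2H2AB at 6.80 and 8.13 in knockdown 1 and 2, against 6.32 in the control to H2AFX, the DNA damage variant, at -3.22 and -3.09 in knockdown 1 and 2, against -3.43 in the control. HIST2H2AB had 343 footprints on 1.08 mRNA in the control and mRNA values of 0 in both knockdowns. Replication-dependent histone genes exist in near-identical copies, so their values are uncertain, and their mRNAs end without a poly(A) tail, and the sources used here do not give how such mRNA was captured. Keratin and junction genes (20 genes) had a median of -0.05 and -0.92 in knockdown 1 and 2, against -0.44 in the control. Of them 3 were high and 7 low (15% and 35%, beside 23.2% and 24.4% of all genes). Their median was 0.16 among genes with control mRNA of at least 10. The keratins with the highest mRNA values were low, KRT19 at -3.00 and -2.97 in knockdown 1 and 2, against -3.59 in the control, KRT18 at -1.23 and -1.17 in knockdown 1 and 2, against -1.79 in the control and KRT8 at -1.78 and -1.76 in knockdown 1 and 2, against -1.63 in the control, on control mRNA values of 1589.7, 636 and 1529, whereas the adhesion molecule EPCAM had 1.07 and 1.12 in knockdown 1 and 2, against 1.09 in the control. Other keratins went other ways, with KRT10 at 2.25 and 3.12 in knockdown 1 and 2, against 3.14 in the control and KRT20, of intestinal epithelium, at -1.08 and -1.12 in knockdown 1 and 2, against 0.58 in the control on a control mRNA value of 1.36.

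Transcription, chromatin and splicing families had control medians within 2-fold of that of all genes. The 156 ZNF genes, mostly DNA-binding repressors, had a median of 0.07 and 0.29 in knockdown 1 and 2, against 0.17 in the control. Of them 44 were high and 31 low (28.2% and 19.9%), near the 23.2% and 24.4% of all genes. With genes of control mRNA of at least 10 alone the ZNF median was -0.60, and the median mRNA value of all of them was 3.53. Chromatin modifiers (59 genes) had a median of -0.37 and 0.16 in knockdown 1 and 2, against 0.01 in the control, and of 0.46 among genes with control mRNA of at least 10. Splicing factors (71) had a median of -0.02 and 0.23 in knockdown 1 and 2, against 0.34 in the control. Among m6A genes, the writer subunit METTL14 had 2.06 and 2.88 in knockdown 1 and 2, against 2.54 in the control and its catalytic partner METTL3 -0.66 and -0.37 in knockdown 1 and 2, against 0.03 in the control. The demethylases lay at opposite ends, FTO at 1.69 and 2.55 in knockdown 1 and 2, against 2.57 in the control and ALKBH5 at -3.08 and -2.82 in knockdown 1 and 2, against -3.31 in the control. YTHDF1 itself was an average gene, at 0.01 and 0.56 in knockdown 1 and 2, against 0.08 in the control, and its paralog YTHDF2 stood at -0.04.

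Metabolic and mitochondrial families held extremes in both directions. Glycolytic enzymes (14 genes) had a median of 0.19 and 0.18 in knockdown 1 and 2, against -0.13 in the control, so its sign was not kept. LDHA, which makes lactate, had 1.99 and 2.80 in knockdown 1 and 2, against 3.30 in the control and PFKL, a phosphofructokinase, 2.96 and 3.96 in knockdown 1 and 2, against 2.72 in the control, whereas TPI1 had -2.15 and -2.26 in knockdown 1 and 2, against -2.35 in the control and PGAM1 -2.85 and -2.36 in knockdown 1 and 2, against -2.67 in the control. GAPDH, often used as a constant reference, had 3384 footprints on 2623 mRNA and an efficiency of -0.49 and -0.90 in knockdown 1 and 2, against -0.69 in the control, with 65 named pseudogenes that have like sequence. Oxidative phosphorylation subunits had a median of 0.30 (40 genes, 27.5% high and 12.5% low, beside 23.2% and 24.4% of all genes), from COX6B1 of complex IV at 3.17 and 3.35 in knockdown 1 and 2, against 3.28 in the control to NDUFB1 of complex I at -1.70 and -1.43 in knockdown 1 and 2, against -2.09 in the control. Mitochondrial ribosomal proteins centred on 0.16 (48 genes), with MRPL52 at 3.56 and MRPL43 at -2.93. Solute carriers, which move nutrients and ions across membranes, had 13 high and 25 low of 74 (17.6% and 33.8%), the lowest being SLC7A5, the large neutral amino acid transporter, at -3.60 and -3.70 in knockdown 1 and 2, against -3.82 in the control.

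Single genes reached further than any family. Among 3346 genes with control mRNA of at least 10 and no small RNA gene inside, the 15 highest ran from 3.61 to 8.44. CD68 (chromosome 17, 7579638 to 7582111), a lysosomal glycoprotein of macrophages, had footprint values of 10162 and 9485 in knockdown 1 and 2 and 15089.6 in the control, on mRNA values of 4.98, 19.9 and 19.9. Its efficiency was 9.84 and 8.13 in knockdown 1 and 2, against 8.44 in the control, high in each pair. The snoRNA genes SNORA67 and SNORD10 lie 1547 and 2680 bases from it, and their part in its value was not tested. PCNP (chromosome 3, 101574094 to 101594465), a nuclear protein rich in PEST sequences, had 6.72 and 6.43 in knockdown 1 and 2, against 6.20 in the control, and ENO3, the muscle enolase, 6.63 and 5.68 in knockdown 1 and 2, against 6.05 in the control. LGALS1, the secreted lectin galectin-1, had 4.69 and 4.63 in knockdown 1 and 2, against 4.58 in the control, with 4779 footprints on 95.4 mRNA in the control. PNRC2, a cofactor of mRNA decay, had 4.09 and 4.62 in knockdown 1 and 2, against 4.54 in the control, and TNFRSF12A, the receptor of TWEAK, 3.50 and 3.24 in knockdown 1 and 2, against 4.21 in the control. SNX1, a sorting nexin, was the exception among the 15, with 1.17 and 0.89 in knockdown 1 and 2, against 4.74 in the control. The other 14 were high in both knockdown pairs.

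The 15 lowest ran from -6.20 to -4.22 and all were low in both knockdown pairs. PPIP5K1 (chromosome 15, 43533475 to 43590253), an inositol pyrophosphate kinase, had footprint values of 0.433 and 3.35 in knockdown 1 and 2 and 7.12 in the control, on mRNA values of 308, 158 and 286. VAPA (chromosome 18, 9914016 to 9960021), which tethers the endoplasmic reticulum to other membranes, had 5.01 footprints on 175 mRNA in the control and efficiencies of -6.86 and -6.33 in knockdown 1 and 2, against -5.93 in the control. TUBG1, the gamma-tubulin of the centrosome, had 67.4 footprints on 765 mRNA and efficiencies of -4.82 and -4.91 in knockdown 1 and 2, against -4.54 in the control. BCL2L1, which encodes the survival protein BCL-XL, had -4.25 and -4.27 in knockdown 1 and 2, against -4.22 in the control, and SPTBN1, a spectrin, -3.29 and -3.99 in knockdown 1 and 2, against -4.27 in the control. Of the 15, PPIP5K1, NOMO1, ATAD3A and MSTO1 have near-identical copies in the genome, so their values are uncertain. RefSeq names pseudogenes for 4 of the 15, most of them, 6, for TMEM183A, whose value is uncertain as well. On the RIP list were 9 of the 15 lowest and 0 of the 15 highest, against 36.3% of all genes.

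**Figure D4:**
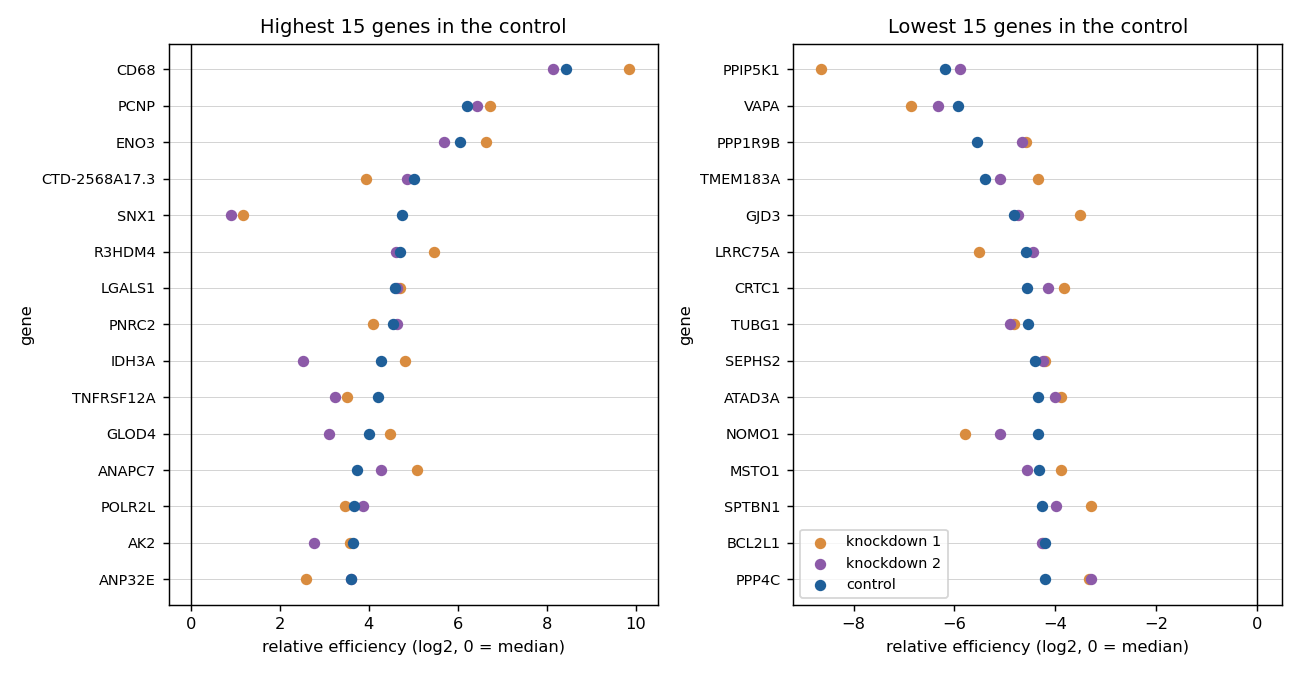
Relative efficiency (log2, x axis) of the 15 highest genes (left) and the 15 lowest (right) in the control among genes with control mRNA of at least 10 and no small RNA gene inside, in knockdown 1, knockdown 2 and the control. SNX1 is the only one with a knockdown value within 2-fold of the median, 0.89 in knockdown 2.

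Small nucleolar, small nuclear and micro RNA genes lie inside 669 of the genes by position on either strand. These hosts had a median of 0.01, against 0.00 in the other 5970. By kind, the 241 snoRNA hosts had a median of 0.43 and the 414 genes with a miRNA gene alone -0.29. At the top the share was larger, with 10 hosts among the 30 highest genes, against 10.1% of all genes. C12orf57 (chromosome 12, 6943433 to 6946003), inside which RefSeq places the U7 snRNA gene RNU7-1, had the highest efficiency of all, 8.62 and 10.25 in knockdown 1 and 2, against 8.76 in the control, on 100536 footprints and 110.4 mRNA in the control. GNL3, a nucleolar GTPase with 5 snoRNA genes, had 5.16 and 4.95 in knockdown 1 and 2, against 5.40 in the control, and RCC1, the exchange factor of Ran, 4.09 and 3.99 in knockdown 1 and 2, against 3.88 in the control. Other hosts did not keep their place. CHD8, a chromatin remodeler, had -0.27 and 6.0 in knockdown 1 and 2, against 5.78 in the control, PLCB1, a phospholipase, -0.44 and -1.25 in knockdown 1 and 2, against 4.77 in the control, and RNF149, a ubiquitin ligase, -1.11 and 3.50 in knockdown 1 and 2, against 4.54 in the control. The part of small RNAs in these footprint values was not tested.

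m6A peaks were listed in both replicates for 4881 of the genes and in neither for 1063. Marked genes had a median efficiency of -0.05 and unmarked genes 0.16. The shares of high genes were 22.1% and 27.2%, and of low genes 25.7% and 18.8%. By the mean number of peaks over the 2 replicates, medians were 0.16 with none, 0.05 up to 1, -0.03 up to 3 and -0.12 beyond. Genes on the YTHDF1 RIP list, which holds ratios of immunoprecipitate to input of at least 1.5, showed a wider gap. The 2407 listed genes had a median of -0.39 and the 4232 others 0.23, a difference of -0.62. It was -0.51 and -0.67 with the libraries of knockdown 1 and 2, in which YTHDF1 was depleted. High were 14.0% of listed and 28.4% of other genes, and low 31.7% and 20.2%. The quartiles overlapped widely, -1.32 to 0.51 in listed genes and -0.73 to 1.14 in the others.

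Both annotations were then crossed. Among marked genes the 2149 listed ones had a median of -0.41 and the 2732 others 0.24. Among unmarked genes the values were -0.07 (107 listed genes) and 0.20 (956 others). Off the RIP list, marked and unmarked genes thus had nearly the same median. Listed genes with RIP ratios up to 2 had a median of -0.23, those from 2 to 3 -0.43, from 3 to 5 -0.53 and from 5 on -0.51. Across 5 bins of control mRNA, low to high, the difference of listed from other genes was -0.12, -0.73, -0.87, -0.79 and -0.66. The control mRNA value is also the divisor of the efficiency, and the mean difference within bins of knockdown 2 mRNA was -0.64. Listed genes with named values above include CTNNB1 (RIP ratio 2.33), DVL1 (1.91), SEPHS2 (2.38) and PPIP5K1 (3.85), which lie at opposite ends of the efficiency scale. The RIP list held 36.3% of all genes. Ribosomal protein genes were nearly absent from it, 1 of 50 (2%), as were mitochondrial ribosomal protein genes, 0 of 48 (0%), against 14 of 20 Wnt genes (70%). Other families lay between, such as splicing factors with 25.4% and ZNF genes with 45.5%.

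**Figure D5:**
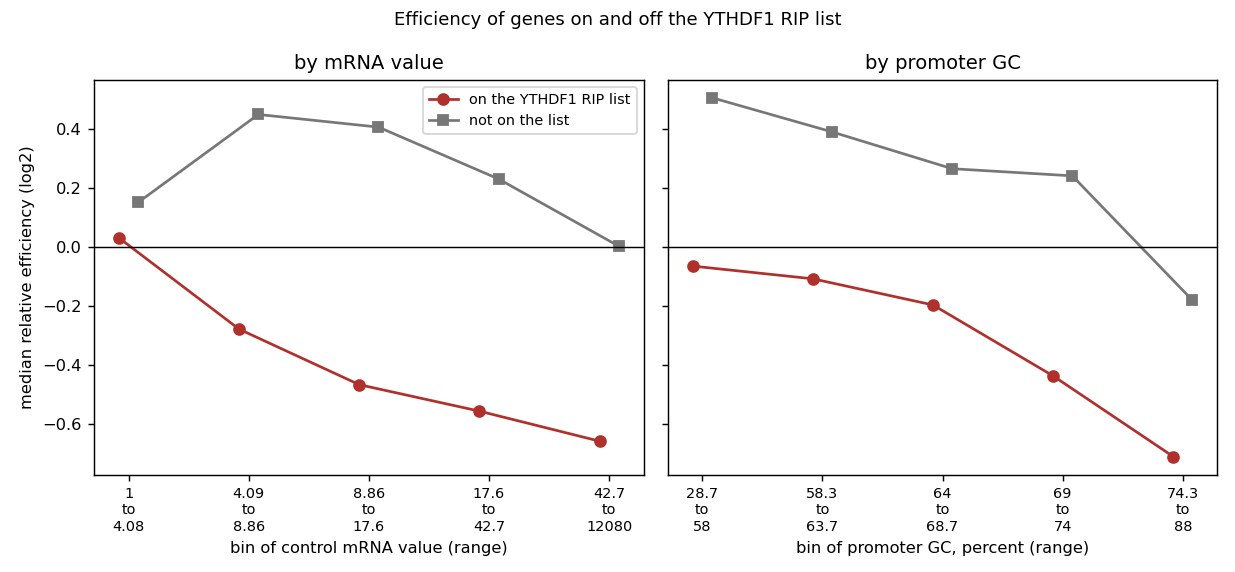
Median relative efficiency (log2, y axis) of genes on the YTHDF1 RIP list and of genes not on it, in 5 bins of control mRNA value (left) and of promoter GC (right), with the range of each bin below it. Listed genes lie below the others in every bin, and both lines fall towards high promoter GC.

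Efficiency was lower in genes with GC-rich promoters. For 5638 genes (84.9%) RefSeq gives the 300 bases around the most upstream start. In 5 bins of their GC content, low to high, the medians were 0.36, 0.24, 0.10, -0.06 and -0.46. The lowest and highest bins held 30.4% and 15.8% high genes. Across these genes, which share their libraries and are not independent, the Spearman rho of efficiency with GC was -0.18 and -0.19 in knockdown 1 and 2, against -0.19 in the control. It was -0.13 for the footprint value and 0.00 for the mRNA value. Genes on the RIP list had a median promoter GC of 68% and the others 65%, and within GC bins, low to high, the listed genes differed from the others by -0.57, -0.50, -0.46, -0.68 and -0.53. In the same bins m6A-marked genes differed from unmarked ones by -0.03, -0.10, -0.01, -0.41 and -0.32, so the gap was small in the 3 lower bins. The median promoter GC of all genes with a promoter row was 66%. Among families of low efficiency, it was 71.8% in Wnt genes (14 with a row), 70.2% in AP-1 and immediate early genes (24) and 69.7% in selenoproteins (7). Families that were not low had like values. Ubiquitin-conjugating enzymes, with a median efficiency of 0.89, had 71.3%, and genes known for upstream open reading frames, with 0.26, had 69.7%. The part of GC content in these differences was not tested.

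To show the contrast in letters, the 100 bases before the start are printed for the 2 genes nearest the median efficiency of the lowest GC bin and the 2 nearest that of the highest, with CG pairs in capitals (RefSeq, GRCh38.p14).
NDUFA12 (chr12:95003698-95003797, minus strand): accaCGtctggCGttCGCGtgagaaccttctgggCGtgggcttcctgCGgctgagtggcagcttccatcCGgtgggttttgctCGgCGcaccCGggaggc
AP3M1 (chr10:74150829-74150928, minus strand): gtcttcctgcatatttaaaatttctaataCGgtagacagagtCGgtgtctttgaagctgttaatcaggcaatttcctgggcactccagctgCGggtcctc
FAM57A (chr17:732496-732595, plus strand): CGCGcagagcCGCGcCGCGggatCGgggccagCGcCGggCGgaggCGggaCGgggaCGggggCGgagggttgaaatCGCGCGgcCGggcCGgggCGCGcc
USP39 (chr2:85602761-85602860, plus strand): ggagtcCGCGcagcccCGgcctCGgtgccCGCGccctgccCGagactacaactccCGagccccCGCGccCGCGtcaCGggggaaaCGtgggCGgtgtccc

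The first pair comes from the lowest bin, with 58% and 50.7% GC over the 300 bases, and the second from the highest, with 84.7% and 76.3%. Over the printed 100 bases GC was 67% and 46% in the first pair and 85% and 78% in the second. NDUFA12 lies at the upper edge of the lowest bin, 58%, and its printed stretch is GC-rich, so AP3M1 shows the contrast better. NDUFA12, a complex I subunit, had 401 footprints on 149.9 mRNA in the control and an efficiency of 0.36, and AP3M1, an adaptor subunit, 58.8 footprints on 21.5 mRNA and 0.36. FAM57A had 44.1 footprints on 28.9 mRNA and -0.46, and USP39, a splicing protein, 80.2 footprints on 53.5 mRNA and -0.48. A match of base composition is a description of these windows and does not say which bases the mRNA holds.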

How the data were processed

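Ribosome footprint and mRNA libraries of HCT116 cells were read from a table of the authors with 1 signal value per gene and library, in a unit that its header leaves unnamed. The sources used here do not give whether it is scaled per length, and no read depth can be had from it, so no interval or count model was used. Both control columns hold values of at least 0.5, so genes below that in the control are missing, which limits how low an efficiency of a scarce mRNA can be. Per the submitters' processing notes STAR and GRCh38 were used, with versions not given. The RIP list holds the authors' FPKM values for immunoprecipitate and input, and their ratio, which is at least 1.5, with input FPKM of at least 1. In the m6A lists, deposited signal values stand beside a peak to input ratio that is never under 3. Both ratios are the authors' own and served only to annotate genes.

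Groups came from the sample labels. Efficiency was log2((footprint + 1)/(mRNA + 1)) minus its median over 6639 genes, computed in Python 3.11.15 with pandas 2.3.3 and numpy 2.4.6 and tested on simulated data. The pseudocount of 1 pulls genes with small values towards equal footprint and mRNA values. That point lies below the median of all genes, whose raw log2 ratio was 1.05. Left out were 12 rows with spreadsheet-damaged names and 275 genes below the mRNA minimum. With 1 control library per assay no test was made. RefSeq symbols matched 99.7% of genes. Small RNA genes were placed by position on either strand, since the table used gives none. Figures were drawn with matplotlib 3.10.9.

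The members and gene lists were chosen with earlier results of these data known. The rule for named genes took the 15 highest and 15 lowest genes with control mRNA of at least 10 and no small RNA gene inside, the 10 highest hosts of small RNA genes, the highest, middle and lowest member of each family of at least 5 genes, the 10 highest footprint values, and a few genes by name. A few genes are not reported here by name. Other members of a family were named after their values were seen. One list, of noncoding hosts of small RNAs, had 0 genes in the table. Alternatives were other pseudocounts and mRNA minimums, hosts left out, knockdown libraries, single m6A replicates, bins of mRNA, and a higher RIP ratio. Bins of promoter GC, and the comparison by GC, were added after the data were seen.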

Additional observations from a re-analysis of the deposited data

How the results depend on the processing

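No paired analysis was possible because the control has 1 library per assay and no test was made. As a stand-in for replicate error, a value other than a count was called moved when it shifted by more than the SD between knockdown 1 and 2. The median log2 ratio over all genes was 0.8145 with a pseudocount of 5 and 0.89 and 0.69 with knockdown 1 and 2, against 1.05 as reported. Counts of high and low genes, 1540 and 1619 as reported, were judged by a fixed ratio to the reported count instead. That SD was 19.8 for the high and 27.6 for the low count. The counts were 1351 and 1224 with a pseudocount of 5, which is a shift beyond it. They were 837 and 912 with control mRNA of at least 10, where fewer genes enter. The ZNF median was -0.0219 with a pseudocount of 5 and -0.60 with mRNA of at least 10, and the cause was not tested. The RIP difference was, with a pseudocount of 5, -0.51, with mRNA of at least 10, -0.75 and, with knockdown 1, -0.51, against -0.62 as reported, and it stayed negative under the 11 alternatives run. The m6A difference, -0.21, ranged from -0.28 in knockdown 2 to -0.10 in knockdown 1 under its 12 alternatives. Each shift was below the SD of 0.13. These 2 knockdown values themselves set that SD, so it is a loose bound here. The difference of small RNA hosts from the rest, 0.01, was 0.0705 with a pseudocount of 5 and 0.0647 in knockdown 1. The highest promoter GC bin differed from the lowest by -0.82, and by -0.87 and -0.65 with pseudocounts of 0.1 and 5 and -0.76 with no mRNA minimum. Of the 36 families other than ribosomal protein and ZNF genes, 15 changed sign under some alternative, each from a median within 2-fold. The ribosomal protein and ZNF medians changed sign as well, the former to 0.13 with a pseudocount of 5. Of the named genes past 2-fold, 4 changed sign, all with knockdown libraries, namely CHD8 (-0.27 in knockdown 1), PLCB1 (-0.44 and -1.25), RNF149 (-1.11 in knockdown 1) and WARS (-0.16 in knockdown 2). Efficiency by protein length was not run, as no protein sequences were used here. Read depth is unknown, so the precision of single genes cannot be stated beyond the spread between pairs.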

Other observations

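Genes of nuclear transport and RNA helicases were not described above. Of 35 nucleoporins and transport receptors 13 were high and 1 low, NUP210 (37.1% and 2.9%, beside 23.2% and 24.4% of all genes). Their median was 0.56 and 0.57 in knockdown 1 and 2, against 0.45 in the control. RAN, the GTPase that gives transport its direction, had 1.51 and 1.81 in knockdown 1 and 2, against 1.98 in the control, and its partner RANBP1 1.59 and 1.53 in knockdown 1 and 2, against 1.92 in the control. Among 34 DEAD and DEAH box helicases 13 were high and 4 low (38.2% and 11.8%), beside 23.2% and 24.4% of all genes, and the median was 0.14 and 0.56 in knockdown 1 and 2, against 0.49 in the control. DDX6, which represses and degrades mRNA, had 1.87 and 1.51 in knockdown 1 and 2, against 1.85 in the control, and DHX34, a factor of nonsense-mediated decay, -2.50 and -2.55 in knockdown 1 and 2, against -2.73 in the control.

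Genes known for upstream open reading frames did not share one efficiency. ATF4, whose translation rises under stress, had -0.55 and -1.28 in knockdown 1 and 2, against 0.93 in the control, which spans the median. CEBPB had -3.05 and -2.86 in knockdown 1 and 2, against -3.05 in the control and CEBPG -3.77 and -2.76 in knockdown 1 and 2, against -3.62 in the control, whereas MDM2 had 0.97 and 1.45 in knockdown 1 and 2, against 1.79 in the control. In cholesterol synthesis and uptake (16 genes, median -0.46), MSMO1, IDI1 and SC5D stood at 3.26, 1.94 and 1.70, while the regulators SREBF1 and SREBF2 stood at -1.14 and -1.24.

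Ribosomal protein genes with 20 or more named pseudogenes had a median efficiency of -1.23 and 0.05 in knockdown 1 and 2, against -0.72 in the control (19 genes). Those with 10 to 19 had a control median of 0.34 (11 genes) and those with 0 to 9 of 0.36 (20 genes). Across 5 bins of control mRNA, low to high, the median efficiency of all genes was 0.12, 0.14, 0.00, -0.09 and -0.13. The mRNA value enters the efficiency as divisor.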
